A study of Mus musculus with 16 samples.

Results

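Ctsk-high myeloid cells are described here as cell barcodes from mouse melanomas that carried 3 or more UMIs (unique molecular identifiers, each standing for 1 captured RNA molecule) of Ctsk, the gene for cathepsin K. The rule also asked for 3 or more UMIs of Tyrobp, the adaptor of many myeloid receptors, at most 2 UMIs of Col1a1, Col1a2 and Col3a1 together, no UMI of Cd3d or Cd3e, at least 200 genes and at most 10% mitochondrial UMIs. It chose 1293 barcodes, which were 2.84% of the 45604 barcodes that met every condition except the one on Ctsk (called eligible below), 1.30% of the 99357 barcodes that met the limits on genes and mitochondrial UMIs, and part of 116552 barcodes in all. The levels of Ctsk and Tyrobp in these barcodes follow from the rule and are given only as a description.

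The cells came from B16 melanomas (Bro4.1 line) grown under the skin of C57BL/6J mice from 1000000 implanted cells that were either control or B2m-null. The product of B2m is the small subunit that MHC class I needs to reach the cell surface. B2m was lost from the implanted cells according to the design text, which is followed here, while the sample labels write the loss as the sample's genotype. Mice received 100 µg of anti-CD40 antibody or of the rat IgG2a isotype antibody by intraperitoneal injection on days 6, 9 and 12 after implantation, and tumours were taken on day 14. CD45+ cells were enriched on magnetic columns, so cells without CD45 were depleted by the method, and the cells of each mouse were marked with a hashtag antibody and pooled by group on 1 lane. Control tumours with isotype antibody gave 2 lanes and 5 mice, control tumours with anti-CD40 gave 2 technical lanes of 1 pool and 2 mice, B2m-null tumours with isotype antibody gave 2 lanes and 5 mice, and B2m-null tumours with anti-CD40 gave 2 lanes and 4 mice. Mice are counted here as the hashtags that the files hold, while the labels list 3 hashtags per pool. No lane held mice of more than 1 group, so lane and group cannot be told apart.

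Cathepsin K is a lysosomal cysteine protease that cleaves collagen. It is best known as the main bone-dissolving protease of osteoclasts, the multinucleated myeloid cells of bone, which also make tartrate-resistant acid phosphatase (Acp5), the gelatinase Mmp9, and a proton pump with the Atp6v0d2 subunit under control of the transcription factor Nfatc1. Tumour and adipose macrophages that take up lipid and debris are known for a second set of genes, among them Gpnmb, Spp1, Trem2 and Fabp5, and fibroblasts are a further source of Ctsk. CD40 is a receptor on macrophages, dendritic cells and B cells, and agonist antibodies to it are used to activate them.

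Total UMIs per lane ranged from 46.0 to 99.3 M (M, 1000000), and 33.9% to 93.1% of the barcodes of a lane could be assigned to 1 mouse by hashtag. Of the Ctsk-high barcodes, 965 were assigned to a mouse, 194 (15%) carried more than 1 hashtag and 134 could not be assigned. Pairs of lanes shared 41 to 92 barcode sequences, and no Ctsk-high barcode sequence occurred in more than 1 lane. Ctsk-high barcodes were deeper than the rest, with a median of 11359 UMIs against 4679.

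The label of the cells was checked against markers the rule had not used. Of the 1293 Ctsk-high barcodes, 1290 had a UMI of Fcer1g, 1239 of Cd68, 1123 of Ptprc, 1039 of Spi1 and 961 of Csf1r, while 11 had one of the fibroblast gene Dcn and 69 one of the melanoma gene Mlana. Among the 123 barcodes with 50 or more Ctsk UMIs, Fcer1g (an Fc receptor subunit) had a UMI in 123, Cd68 (a macrophage lysosomal protein) in 121, Spi1 (the PU.1 transcription factor) in 118, Csf1r (the CSF1 receptor) in 115 and Ptprc (CD45) in 101. Dcn had a UMI in 3 of them, and Mlana in 1. Over the 14 mice with at least 10 Ctsk-high barcodes, the summed level of 8 myeloid genes was 5963 to 11996 counts per 1000000 UMIs (CPM) in Ctsk-high barcodes and 8930 to 14587 CPM in other eligible barcodes. Of these 8 genes 5 were lower in Ctsk-high barcodes in edgeR's test described below, among them Ptprc (254 against 511 CPM), and 1, Cd68, was higher. The summed level of 13 fibroblast genes was 5.35 to 52.9 CPM against 8.5 to 31.3 CPM. Melanoma genes summed to a median of 39.6 CPM in Ctsk-high barcodes, with the highest mouse at 1502 CPM, and to a median of 206 CPM in other eligible barcodes, with the highest at 773 CPM. At full depth 31 Ctsk-high barcodes (2.40%) held 3 or more UMIs of 4 pigment genes against 1.32% of other eligible barcodes, and at 4000 UMIs the shares were 0.538% and 0.582%.

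Of the eligible barcodes, 90.3% had no Ctsk UMI, which at this depth does not limit how many cells express the gene. The 1293 Ctsk-high barcodes held 86.5% of all Ctsk UMIs of the eligible set, a share that the limit of 2 UMIs outside the rule largely sets. Of the barcodes with 3 or more Ctsk UMIs and sufficient genes, 1896 in all, 340 failed on Tyrobp, 278 on collagen and 278 on Cd3 UMIs. Fibroblast barcodes, defined by 10 or more collagen UMIs, had 180 to 337 CPM of Ctsk by lane, and 274 of 896 had 3 or more UMIs. T cell barcodes served as the measure of free RNA. They had 3.28 to 14.9 CPM, a Ctsk UMI in 0.281% to 1.98% by lane at median depths of 1636 to 3031 UMIs, and 27 of 13711 had 3 or more. Eligible barcodes had 33.8 to 317 CPM and a UMI in 6.80% to 14.9% at median depths of 3565 to 6968 UMIs, above the T cell barcodes of every lane.

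At the cut itself the values changed gradually. Barcodes with 2 Ctsk UMIs, just outside, numbered 686 with a median depth of 8374.5 UMIs, and 59.9% of them held 3 or more UMIs of Mmp12 (macrophage elastase). Barcodes with 3 Ctsk UMIs, just inside, numbered 312 with a median depth of 9818 UMIs, and 67.0% of them held 3 or more UMIs of Mmp12.

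For the location of the genes the results turn on, Ctsk lies on the plus strand at chr3:95499256-95509362, Acp5 on the minus strand at chr9:22126727-22135711 and Mmp9 on the plus strand at chr2:164940780-164955850 (GRCm38). The 250 bases before the RefSeq start of Ctsk and before the third of 3 RefSeq starts of Acp5 are printed 5′ to 3′ (build GRCm38.p6, plus strand chr3:95498960-95499209 and minus strand chr9:22130599-22130848), since the 2 genes were high in the same barcodes. Capitals mark matches to the letters of 3 searched motifs, read on both strands:
Ctsk: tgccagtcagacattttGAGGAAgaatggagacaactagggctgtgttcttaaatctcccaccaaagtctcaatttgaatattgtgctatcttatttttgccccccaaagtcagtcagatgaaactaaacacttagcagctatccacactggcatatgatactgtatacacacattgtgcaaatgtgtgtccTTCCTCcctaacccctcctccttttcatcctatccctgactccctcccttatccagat
Acp5: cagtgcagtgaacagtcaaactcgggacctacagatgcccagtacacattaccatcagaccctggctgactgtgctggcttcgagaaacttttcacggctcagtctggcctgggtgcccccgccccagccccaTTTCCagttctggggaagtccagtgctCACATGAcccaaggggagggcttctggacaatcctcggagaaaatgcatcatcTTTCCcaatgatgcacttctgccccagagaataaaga
The Ctsk window held 2 matches to the PU.1 core GAGGAA, 233 and 58 bases before the start, letters found in 23.3% of 32851 mouse promoters of this length. The Acp5 window held 1 match to the M-box TCATGTG of the MiT factors, 90 bases before the start (3.25% of promoters), and 2 matches to the NFAT core GGAAA, 117 and 37 bases before the start (55.6% of promoters). The windows of the other 2 Acp5 starts held no M-box and 1 NFAT core each, so the printed window is the one with the M-box. The AP-1 letters TGANTCA (6.75% of promoters) had no match in these windows. A match describes letters and not a bound site.

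How were Ctsk-high cells distributed over lanes, tumours and treatments? They occurred in all 8 lanes, and the lane with the most held 21.0% of them. By lane they were 2.45% (199 of 8111) and 2.73% (169 of 6201) of eligible barcodes in control tumours with isotype antibody, and 2.19% (79 of 3604) and 1.56% (62 of 3983) in the 2 lanes of the control pool with anti-CD40. In B2m-null tumours they were 1.43% (79 of 5531) and 3.02% (230 of 7605) with isotype antibody, and 3.78% (204 of 5395, 95% Wilson interval 3.30% to 4.32%) and 5.24% (271 of 5174, 4.66% to 5.88%) with anti-CD40. The B2m-null anti-CD40 lanes had the highest shares, and the 2 B2m-null isotype lanes differed from each other beyond counting error, with intervals of 1.15% to 1.78% and 2.66% to 3.43%. These intervals cover counting error only. The median depth of eligible barcodes in the 2 B2m-null isotype lanes was 3843 and 6525 UMIs. With barcodes thinned to 4000 UMIs, these lanes were at 1.31% and 1.17%, and the B2m-null anti-CD40 lanes at 4.85% and 3.39%. Both orders thus turned, and the thinned control lanes were at 1.74% and 1.89% with isotype antibody and 1.70% and 1.68% with anti-CD40.

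By mouse, the share was 1.62%, 1.27%, 3.58%, 2.65% and 2.13% in control tumours with isotype antibody (mean 2.25 ± 0.906 SD, n = 5) and 2.48% and 1.67% with anti-CD40 (2.07 ± 0.578, n = 2). In B2m-null tumours it was 2.56%, 0.474%, 1.95%, 2.11% and 3.75% with isotype antibody (2.17 ± 1.18, n = 5) and 1.69%, 5.32%, 4.96% and 5.41% with anti-CD40 (4.34 ± 1.78, n = 4). At full depth 3 of the B2m-null anti-CD40 mice lay above every other mouse and 1 lay inside the isotype range. The difference of 2.18 percentage points between antibodies in B2m-null tumours did not pass a two-sided exact permutation test over mice (p = 0.0794, adjusted p = 0.317 over 4 contrasts, smallest possible p 0.0159). In control tumours the difference was -0.176 percentage points (exact permutation p = 0.952, smallest possible 0.0952). B2m-null tumours differed from control tumours by -0.0810 points with isotype antibody (exact permutation p = 0.897) and by 2.27 points with anti-CD40 (exact permutation p = 0.267, smallest possible 0.133). As a share of all barcodes within the gene and mitochondrial limits, Ctsk-high barcodes were 0.671% to 2.18% in control isotype mice (mean 1.27%) and 0.661% and 0.489% in control anti-CD40 mice (mean 0.575%), without overlap, a difference of -0.693 points at the smallest exact permutation p that these groups allow (0.0952, adjusted p = 0.267). The B2m-null anti-CD40 mice had 0.898% to 2.76% by that denominator (mean 2.07%) and did not overlap the control anti-CD40 mice (1.49 points, exact permutation p = 0.133, also the smallest possible, adjusted p = 0.267). With every barcode thinned to 4000 UMIs, 558 of 25488 eligible barcodes were Ctsk-high, 18870 shallower barcodes were left out, and the mean share per mouse was 1.77%, 2.60%, 1.36% and 3.79% in the same order of groups. Thinning turned the control contrast to 0.83 points. By mouse, the thinned share was 2.69%, 5.71%, 3.31% and 3.47% in B2m-null tumours with anti-CD40. These values lay above all isotype mice, at 0.897% to 1.96% in B2m-null and 0.637% to 2.44% in control tumours. The control anti-CD40 mice were at 3.93% and 1.27%.

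**Figure D1:**
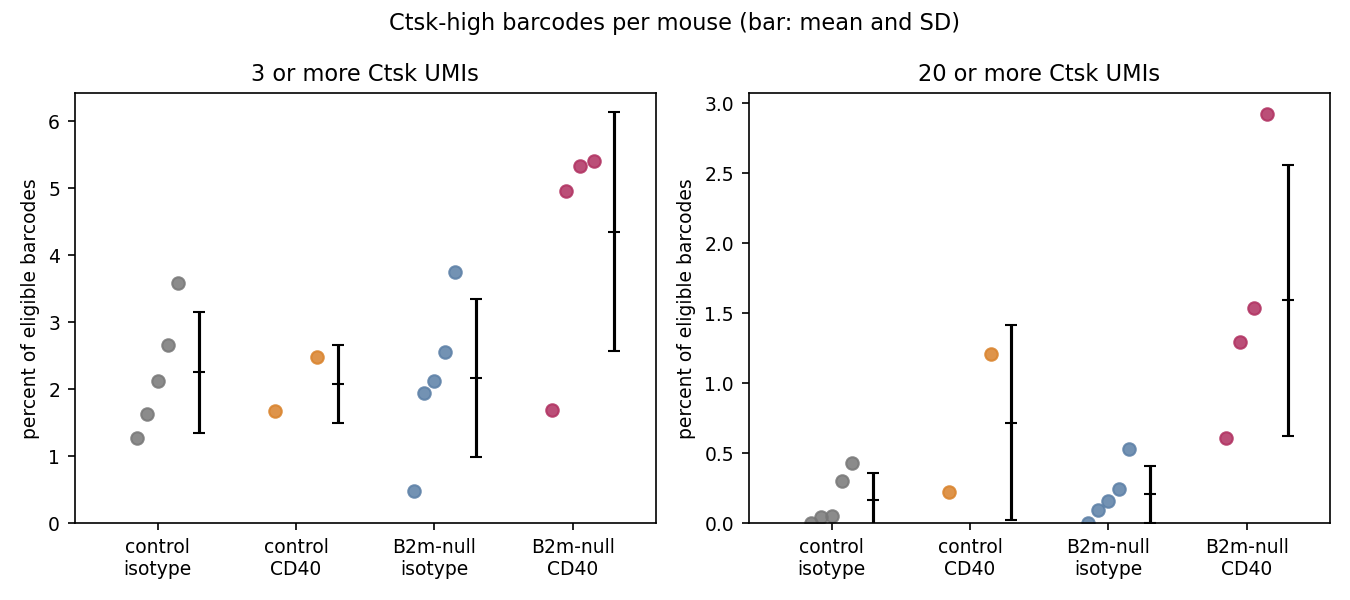
Share of eligible barcodes that were Ctsk-high (left, 3 or more Ctsk UMIs) and that had 20 or more Ctsk UMIs (right), in percent, with 1 point per mouse and bars for the mean and SD, drawn down to 0 at most. In the left panel 3 of 4 B2m-null anti-CD40 mice sit between 4.96% and 5.41% and the other at 1.69%, and in the right panel the group means are 0.165%, 0.718%, 0.206% and 1.59%.

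Barcodes with many Ctsk UMIs came mostly from anti-CD40 lanes. Of the members, 610 had 3 to 5 Ctsk UMIs, 413 had 6 to 19, 147 had 20 to 49 and 123 had 50 or more, with a highest value of 418. These ranges were set after the values were seen, so they are a description with no test. Barcodes with 50 or more Ctsk UMIs numbered 0 and 1 in the 2 control isotype lanes, 11 and 9 in the control anti-CD40 lanes, 0 and 5 in the B2m-null isotype lanes and 62 and 35 in the B2m-null anti-CD40 lanes. They were 0.264% of eligible barcodes in control tumours (20 barcodes) and 0.918% in B2m-null tumours (97) with anti-CD40, against 0.00699% (1) and 0.0381% (5) with isotype antibody. By mouse, they were 0.909% (15 barcodes) and 0.0936% (5) in the 2 control anti-CD40 mice and 0.405%, 1.77%, 0.496% and 0.911% in the B2m-null anti-CD40 mice, against 0% to 0.125% in the isotype mice. The second control anti-CD40 mouse thus lay inside the isotype range, also for 20 or more Ctsk UMIs (0.225% against 0% to 0.532%), and the control value rests on the first. A count of 0 in the first control isotype lane allows a share of up to 0.0370%, and in the first B2m-null isotype lane up to 0.0542%. Barcodes with more than 1 hashtag were 18.7% of the 3 to 5 range and 4.07% of the barcodes with 50 or more UMIs, against 8.90% of other eligible barcodes. Barcodes that could not be assigned to a mouse went the other way, with 8.20% and 20.3% against 15.9%. The median mitochondrial share was 3.70%, 3.56%, 4.27% and 5.91% from the lowest to the highest Ctsk range and 4.52% in other eligible barcodes, and its part in the gene levels by range was not tested.

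**Figure D2:**
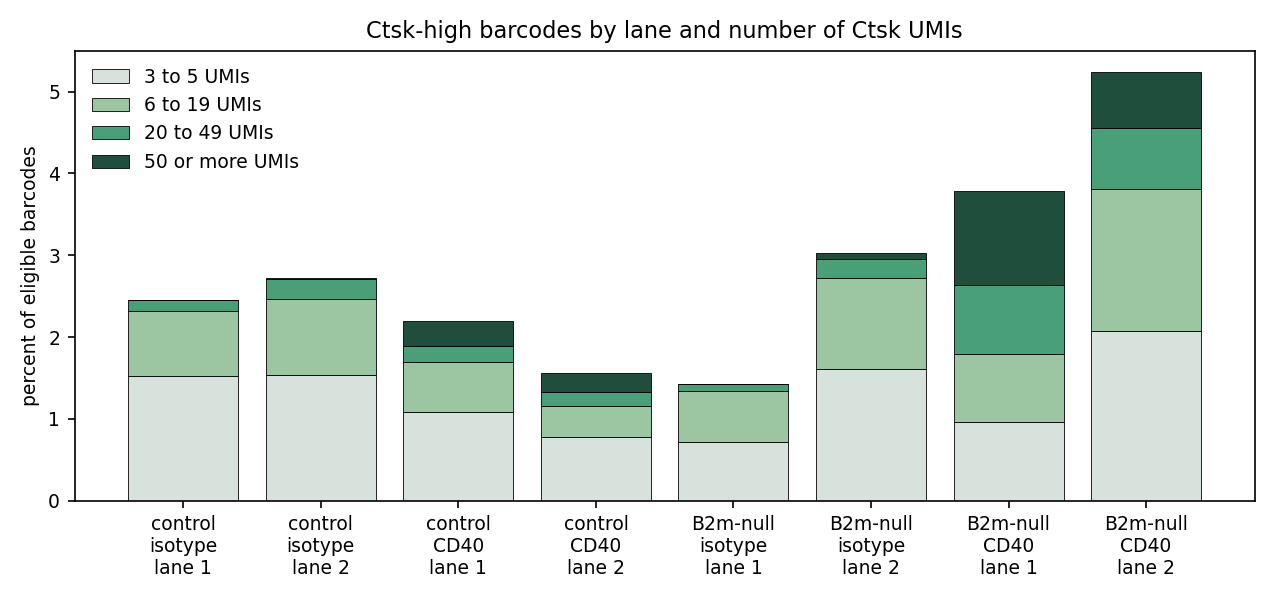
Ctsk-high barcodes as a percent of eligible barcodes in each of the 8 lanes, with bars divided by the number of Ctsk UMIs per barcode. The darkest segment (50 or more UMIs) is 62 and 35 barcodes in the B2m-null anti-CD40 lanes, 11 and 9 in the control anti-CD40 lanes and at most 5 in each isotype lane.

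Summed over all eligible barcodes of a mouse, which needs no cut on Ctsk, the level of Ctsk was 35.5, 33.3, 62.5, 46.2 and 33.5 CPM in control tumours with isotype antibody and 275 and 63.3 CPM with anti-CD40. In B2m-null tumours it was 44.6, 24.7, 31.0, 35.2 and 48.2 CPM with isotype antibody and 130, 456, 144 and 234 CPM with anti-CD40. All 6 anti-CD40 mice lay above all 10 isotype mice, although the lowest of them, at 63.3 CPM, was close to the highest isotype mouse, at 62.5 CPM. In edgeR's quasi-likelihood test over 13066 genes, Ctsk rose with anti-CD40 by a log2 change of 2.90 (SE 0.42, adjusted p = 0.000116) in B2m-null tumours, where 37.9% of genes were called, and by 2.11 (SE 0.47, adjusted p = 0.00534) in control tumours, where 19.6% were called. The control call was lost without the mouse with the higher value (0.75, adjusted p = 0.398), with lanes as units (1.28, adjusted p = 0.0604) and at no more than 5% mitochondrial UMIs (1.04, adjusted p = 0.156). B2m-null and control tumours did not differ past the threshold under either antibody (adjusted p = 0.845 with isotype antibody, 0.512 with anti-CD40), nor did the antibody effects differ between them (interaction 0.79, adjusted p = 0.432). Of all genes 6.37%, 9.63% and 15.9% were called in these tests. In bulk sums such as these, more cells with Ctsk and more Ctsk per cell cannot be told apart. Of the Ctsk UMIs of eligible barcodes, those with 50 or more held 58.7% in control and 64.5% in B2m-null tumours with anti-CD40, and 1.81% and 14.8% with isotype antibody.

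What else did Ctsk-high cells express? UMI counts were summed per mouse over Ctsk-high barcodes and over other eligible barcodes, and the 2 sums of 14 mice were compared with edgeR's quasi-likelihood test with the mouse as a block. The 7 genes of the rule were left out. Of 11818 genes, 1606 were higher in Ctsk-high barcodes (13.6%) and 2088 lower (17.7%). Since depth moved with the rule, each named value was recomputed at 4000 UMIs per barcode. The rule was applied anew to the thinned counts, so the sets changed with the depth. All 22 genes named by rank kept their direction and their call there. Under other settings 3 of them lost the call, Gzma with both sets limited to barcodes with 10 or more C1q UMIs (-0.25, adjusted p = 0.71), Ighm with lanes as units (-1.15, adjusted p = 0.0518) and Ly6i without the mouse block (-1.89, adjusted p = 0.0538).

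Atp6v0d2, a subunit of the vacuolar proton pump, had the largest rise among genes that were higher in 14 of 14 mice and at 50 CPM or more. It ranged from 335 to 563 CPM in Ctsk-high barcodes (median 431, 14 mice) and from 44.1 to 157 CPM in other eligible barcodes (median 103), without overlap, a log2 change of 2.28 (SE 0.11, adjusted p = 8.55e-13). Mmp12 ranged from 884 to 5156 CPM (median 3217) against 294 to 1229 CPM (median 703), a log2 change of 2.10 (SE 0.16, adjusted p = 1.10e-09). Gpnmb, a membrane glycoprotein of lysosome-rich macrophages and osteoclasts, ranged from 700.4 to 2109 CPM (median 1349) against 85.3 to 907 CPM (median 293), a log2 change of 2.07 (SE 0.16, adjusted p = 7.84e-10). The ranges of Mmp12 and of Gpnmb overlapped between mice, but each was higher in Ctsk-high barcodes in 14 of 14 mice.

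The further genes of the rank rule rose by log2 changes of 1.52 to 1.81. They were the collagenases Mmp13 (1.81) and Mmp8 (1.57), the fatty acid binding protein Fabp4 (1.67), the lysosomal protease Ctsl (1.67; 4977 against 1523 CPM), the creatine transporter Slc6a8 (1.59), the heparan sulfate proteoglycan Sdc1 (1.58), coagulation factor F7 (1.54), the glutathione transferase Gstm1 (1.53) and the G protein subunit Gng11 (1.52). The falls named by the same rule were the cytotoxic granule protease Gzma (-3.27; 23.4 against 165 CPM), Tmem176a (-1.99) and Tmem176b (-1.72), Plac8 (-1.94), the monocyte genes Ly6c2 (-1.87) and Ccr2 (-1.79), the immunoglobulin heavy chain Ighm (-1.79), Ly6i (-1.78), the aspartic protease Napsa (-1.74) and the integrin Itgal (-1.67). Each moved the same way in 14 of 14 mice, with adjusted p-values from edgeR of 6.68e-07 or less.

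**Figure D3:**
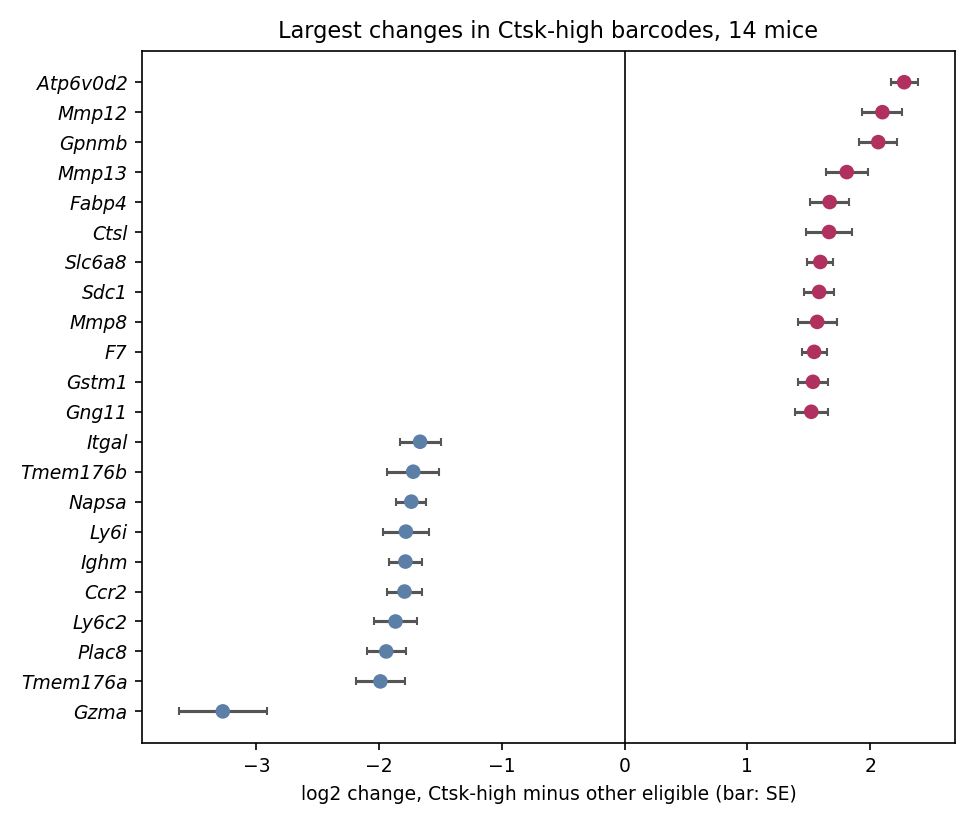
Log2 change between Ctsk-high and other eligible barcodes for the 12 largest rises and 10 largest falls that went the same way in 14 of 14 mice, with bars for the SE. Rises run from 1.52 (Gng11) to 2.28 (Atp6v0d2) and falls from -1.67 (Itgal) to -3.27 (Gzma).

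Osteoclast genes were mostly higher. Of 18 listed genes 16 could be tested, 12 were higher and none lower, with a median log2 change of 1.03 against -0.04 over all genes tested. Acp5 was higher by 2.16 (SE 0.39, adjusted p = 0.000145; 550 against 63.0 CPM, higher in 12 of 14 mice), Src, the tyrosine kinase of the resorbing membrane, by 1.58 (adjusted p = 9.36e-08, 13 of 14 mice), and the fusion proteins Ocstamp by 2.61 (adjusted p = 9.89e-05, 11 of 14) and Dcstamp by 2.00 (adjusted p = 0.00119, 10 of 14), all with edgeR. Mmp9 was higher by 5.5 (SE 0.69, edgeR adjusted p = 9.66e-07), yet in 8 of 14 mice only. Nfatc1, with a log2 change of 0.82, was not called. These values depended on the treated mice. In the 8 isotype mice alone, where 23.7% of genes were called in either direction, 3 of 15 osteoclast genes were higher (Atp6v0d2 2.21, Src 1.57 and Acp5 0.69), 3 were lower (Nfatc1 -0.71, Jdp2 -0.42 and Ckb -0.35), and the median was 0.29. With only the barcodes of 3 to 19 Ctsk UMIs (29.8% of genes called), 5 of 15 were higher and 1 lower, with a median of 0.23. The median of the list was 0.38 at no more than 5% mitochondrial UMIs and 1.83 at 4000 UMIs per barcode.

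Lysosomal genes rose by smaller amounts. Of 23 lysosome and MiT factor genes 15 were higher and none lower (median 0.27), among them the tetraspanin Cd63 (0.95, 14 of 14 mice) and the pump subunit Atp6v1a (0.80, 14 of 14). At 4000 UMIs per barcode (12.6% of genes called) 7 of 23 were higher. Of 15 further cathepsins and inhibitors 6 were higher and 2 lower (median 0.15). Ctsl, the inhibitor Cstb (0.77), Ctsd (0.60) and Ctsb (0.42) were higher, and Ctsc, which activates granule proteases, was lower (-0.83, 14 of 14 mice). The calls of Ctsd and Ctsb did not hold at 4000 UMIs (0.28, adjusted p = 0.128, and 0.21, adjusted p = 0.306).

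Lipid-associated macrophage genes were higher for 11 of 15 and lower for 1 (median 0.92). Besides Gpnmb and Fabp4 they included Spp1, or osteopontin (1.46; 3219 against 1207 CPM), the tetraspanin Cd9 (1.28), Fabp5 (1.26), the galectin Lgals3 (0.92) and the lipid receptor Trem2 (0.87), each in 14 of 14 mice. Apoe was not called (-0.23, adjusted p = 0.0642). At 4000 UMIs per barcode 9 of the 15 lipid-associated genes were higher and none lower (median 0.54). Matrix enzymes and inhibitors were higher for 9 of 13 and lower for 1, the lower one being fibronectin (Fn1, -1.03).

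Genes of several other macrophage states were lower. Resident-like macrophage genes were lower for 12 of 16 (median -0.90), including the hyaluronan receptor Lyve1 (-1.34) and the scavenger receptor Stab1 (-0.99), whereas the growth factor Igf1 was higher (1.04, 14 of 14 mice). All 10 antigen presentation genes were lower (median -1.05). Cd74, the invariant chain, ranged from 802 to 4106 CPM (median 1799) in Ctsk-high barcodes and from 1891 to 6497 CPM (median 4258) in other eligible barcodes, and was lower in 14 of 14 mice (-1.01, SE 0.09, edgeR adjusted p = 4.32e-09). Monocyte genes were lower for 9 of 10 (median -1.80), complement and core macrophage genes for 9 of 12 (median -0.34, with C1qa at -0.57) and inflammatory mediators for 8 of 14 (median -0.64). In the last list the interferon-induced chemokine Cxcl10 (-1.29) and Il1b (-1.31) were lower and Il1a was higher (1.09). At 4000 UMIs per barcode 9 of the 14 inflammatory mediators were lower and none higher, so the rise of Il1a was not called there. Interferon-stimulated genes were lower for 3 of 11 (median 0.03), beside a median of -0.04 over all genes tested. At 4000 UMIs per barcode the median of complement and core macrophage genes was -0.63.

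Other eligible barcodes can include NK cells, dendritic cells and neutrophils, whose genes were mostly lower in Ctsk-high barcodes. NK cell genes were lower for 5 of 5, mature dendritic cell genes for 5 of 5, neutrophil genes for 5 of 6 with Mmp8 the higher one, T cell genes for 6 of 8, cDC1 genes for 4 of 5, cDC2 and pDC genes for 3 of 4 each, B cell genes for 2 of 4, and cell cycle genes for 2 of 5. Of the 13 fibroblast genes 4 could be tested and 1 was higher. Over all genes 17.7% were called lower. The rule left out barcodes with a Cd3d or Cd3e UMI, a stricter limit for deeper barcodes. At 4000 UMIs per barcode, T cell genes were lower for 1 of 8, pDC genes for 1 of 4 and NK cell genes for 4 of 5. Mature dendritic cell genes were lower there for 5 of 5, cDC2 genes for 4 of 4, cDC1 genes for 4 of 5 and neutrophil genes for 3 of 4. With both sets limited to barcodes with 10 or more C1q UMIs (24.8% of genes called), calls were lost in several of these lists. NK cell genes were then lower for 0 of 4, T cell genes for 1 of 6 and neutrophil genes for 1 of 4 with 1 higher (median 0.24), while mature dendritic cell genes were lower for 3 of 5 and cDC1 genes for 4 of 5. Osteoclast genes were higher for 9 of 15 there, and antigen presentation genes lower for 9 of 10. Monocyte genes were lower for 7 of 10 with 1 higher (median -0.64), inflammatory mediators for 4 of 14 with 3 higher (median -0.24), and cell cycle genes for 5 of 5.

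Ctsk-high barcodes overlapped with macrophage classes set by single genes. Mmp12 at 3 or more UMIs was found in 64.6% of them and 16.2% of other eligible barcodes, Gpnmb in 75.9% and 18.4%, and Arg1 (arginase) in 41.0% and 19.2%. At 4000 UMIs per barcode the shares were 47.0% and 19.1% for Mmp12, 50.4% and 18.0% for Gpnmb, and 23.7% and 18.7% for Arg1. For 10 or more UMIs of C1qa, C1qb and C1qc together, the shares were 67.7% and 55.7%, and the order turned at 4000 UMIs (50.2% and 70.0%). It also turned for Vcam1 at 2 or more UMIs, from 25.3% and 19.7% to 11.6% and 19.5%. For Nos2 at 3 or more UMIs it turned from 14.3% and 5.98% to 3.76% and 4.67%. The sets at 4000 UMIs were drawn anew from the thinned counts, with 558 Ctsk-high barcodes. A change of depth and a change of members cannot be told apart there. At full depth fewer than 1% of Ctsk-high barcodes met the counts set for mature, cDC1 or plasmacytoid dendritic cells (0.541%, 0.773% and 0.851%). Of other eligible barcodes 2.02%, 2.23% and 1.62% met them.

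Along the ranges of Ctsk UMIs, 2 sets of genes ran in different directions. The levels that follow are summed over all lanes, in CPM, for barcodes with 0 to 2, 3 to 5, 6 to 19, 20 to 49 and 50 or more Ctsk UMIs. Mmp9 was at 5.5, 5.01, 38.0, 492 and 5167 CPM, and Acp5 at 61.4, 94.2, 178, 603 and 3753 CPM. T cell barcodes had 5.83 CPM of Mmp9 and 63.6 CPM of Acp5, near the levels of eligible barcodes with little Ctsk. Both genes were high where Ctsk was highest, and Mmp9 had a UMI in 90.2% of the barcodes with 50 or more Ctsk UMIs against 2.13% of those with 3 to 5. Mmp12 was at 707, 2685, 3724, 3059 and 1089 CPM, Ctsl at 1523, 4233, 5493, 4282 and 1441 CPM, and Fabp4 at 394, 1145, 1113, 1070 and 229 CPM. These 3 were highest in the middle ranges and lower in the top range, where Ctsl and Fabp4 were below and Mmp12 above the level of barcodes with 0 to 2 Ctsk UMIs. Inside each of the 3 anti-CD40 pools they were also lower at 50 or more than at 6 to 19 Ctsk UMIs, with Mmp12 at 1412, 2092 and 3391 CPM in the lower range and 1184, 219 and 1457 CPM in the higher one (control and B2m-null pools in turn). Atp6v0d2 went from 95.7 over 301, 421 and 530 to 680 CPM, rising over every range.

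The top range was lower in several macrophage genes. Of its 123 barcodes 117 came from anti-CD40 lanes, so over all lanes range and treatment are mixed, and values inside the anti-CD40 pools are given as well. C1qa was at 1809 CPM in barcodes with 0 to 2 Ctsk UMIs and 719 CPM in those with 50 or more, the mannose receptor Mrc1 at 794 and 190 CPM, and Arg1 at 444 and 59.0 CPM. Inside the control pool and the 2 B2m-null pools with anti-CD40, C1qa was at 1866, 1516 and 2260 CPM in barcodes with 0 to 2 Ctsk UMIs and 826, 163 and 1451 CPM in the top range. Mrc1 was at 363, 256 and 489 CPM against 127, 28.2 and 350 CPM there. Arg1 was at 182, 495 and 442 CPM against 4.54, 2.96 and 97.6 CPM, with 1, 2 and 46 UMIs in the top range. All 3 genes were thus lower in the top range in each anti-CD40 pool. Csf1r was at 215 and 286 CPM, and Mt3, a metallothionein, at 1.19 and 609 CPM. C1q genes at 10 or more UMIs were found in 70.5%, 73.8%, 70.1% and 30.9% of barcodes from the lowest to the highest Ctsk range, and Mmp12 at 3 or more in 71.1%, 74.1%, 51.7% and 15.4%. By pool, Mmp9 in the top range was at 8687 CPM in control tumours with anti-CD40 (20 barcodes), 6032 and 2891 CPM in the 2 B2m-null anti-CD40 pools (62 and 35) and 3319 CPM in a B2m-null isotype pool (5). All pools with 5 or more such barcodes thus had it high. The top range also held immunoglobulin light chain RNA (Igkc, 794 CPM), but 4 of 123 barcodes had any and 2 of them held 1182 of the 1184 UMIs.

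**Figure D4:**
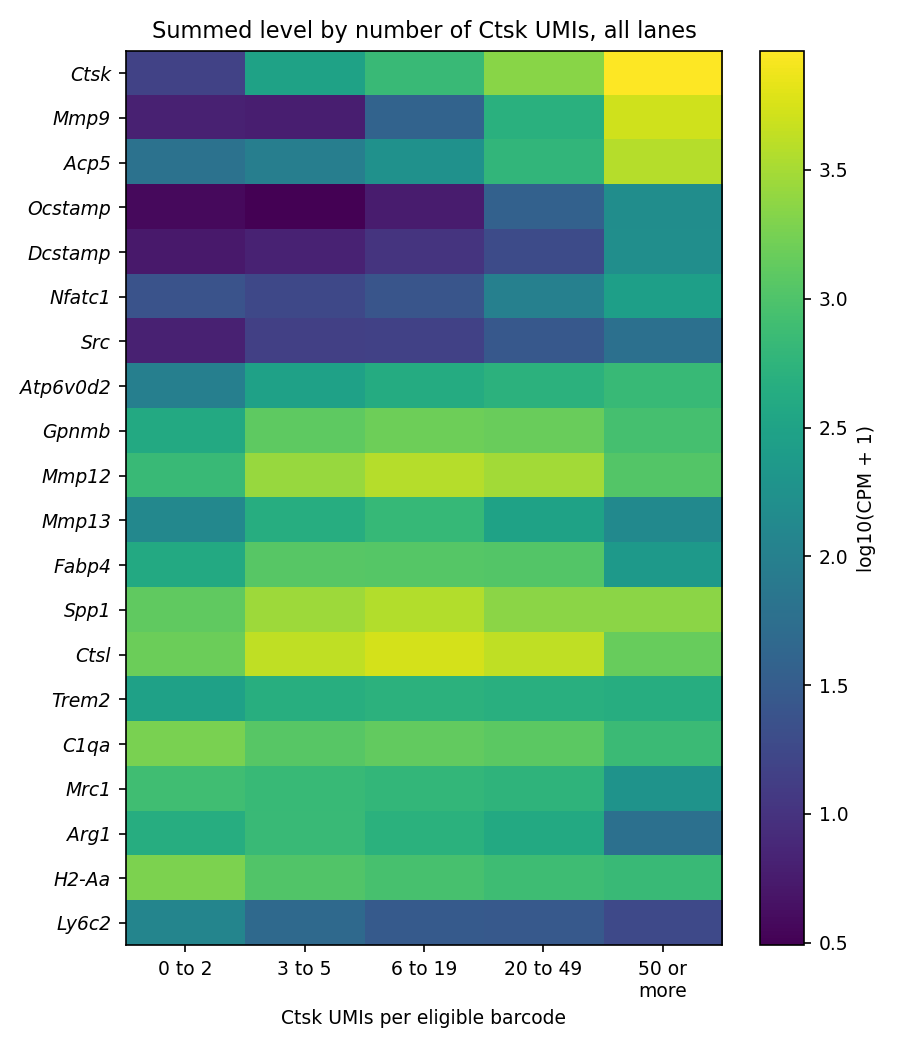
Level of 20 genes, as log10 of CPM plus 1 on the colour scale, summed over all lanes in eligible barcodes with 0 to 2, 3 to 5, 6 to 19, 20 to 49 and 50 or more Ctsk UMIs. Mmp9, Acp5, Ocstamp and Nfatc1 brighten in the 2 highest ranges, while Mmp12, Ctsl, Fabp4 and Gpnmb are brightest in the middle ranges.

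How did anti-CD40 change Ctsk-high cells? Counts of the Ctsk-high barcodes were summed per mouse and compared over 14 mice (5 control isotype, 2 control anti-CD40, 3 B2m-null isotype and 4 B2m-null anti-CD40). With 8406 genes tested in edgeR, 273 (3.25%) were called in control tumours, 210 higher (2.5%) and 63 lower (0.749%) with anti-CD40, and 454 (5.4%) in B2m-null tumours, 252 higher (3%) and 202 lower (2.4%). Mmp9 and Acp5, both on the osteoclast list, were among the 6 largest rises by the rank rule in each tumour.

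Mmp9 showed the largest rise in both tumours. In control tumours it was at 0, 0, 3.05, 0 and 0 CPM with isotype antibody and 3298 and 826 CPM with anti-CD40. In B2m-null tumours it was at 0, 0 and 41.1 CPM with isotype antibody and 2778, 2309, 300.5 and 527 CPM with anti-CD40. Every anti-CD40 mouse lay above every isotype mouse, which the rank rule asks for within each tumour. The isotype side rests on 3 UMIs in control tumours, so the ratio of the pooled counts was 1469 with a counting interval of 502 to 7131, and in B2m-null tumours it was 35.6 (29.2 to 43.9), with all 100 isotype UMIs in 1 mouse. The fitted log2 changes were 10.86 (SE 1.13, edgeR adjusted p = 8.21e-05) and 6.10 (SE 0.88, adjusted p = 0.000803). The call was lost with lanes as units in both tumours (adjusted p = 0.0770 and 0.111) and, in B2m-null tumours, without the second isotype pool (0.111). Other eligible barcodes of the same mice had 1.96 and 5.32 CPM of Mmp9 in control tumours, and 3.32 and 13 CPM in B2m-null tumours, with isotype antibody and anti-CD40 in turn. Neutrophils also make Mmp9. In Ctsk-high barcodes 6 neutrophil genes summed to 65.1 to 224 CPM in isotype mice and 75.4 to 170 CPM in anti-CD40 mice, and Mmp8, itself higher in Ctsk-high barcodes, made the largest part of the sum (mean 64.3 CPM over 14 mice). Cxcr2 and Retnlg were at 0 in all 6 anti-CD40 mice. S100a8 had means of 15.7 and 58.1 CPM in control and 28 and 46.9 CPM in B2m-null tumours, with isotype antibody and anti-CD40 in turn. The part of neutrophil RNA in the Mmp9 values was not tested.

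Acp5 followed the same order. It was at 95.4, 119, 45.8, 70.6 and 111 CPM in control isotype mice, 1530 and 432 CPM in control anti-CD40 mice, 50.8, 58.4 and 90.0 CPM in B2m-null isotype mice and 1847, 2374, 274 and 606 CPM in B2m-null anti-CD40 mice. No anti-CD40 mouse overlapped an isotype mouse, which the rank rule asks for within each tumour. Acp5 rose by 3.67 (SE 0.56, edgeR adjusted p = 0.000649) and 4.21 (SE 0.62, adjusted p = 0.000908). The call was lost with lanes as units in both tumours (adjusted p = 0.167 and 0.0535), without the first control isotype pool in control tumours (0.0608), and in B2m-null tumours at 4000 UMIs (3.09, adjusted p = 0.0786) and without the second isotype pool (0.147). The proton pump subunit Tcirg1 rose by 1.14 and 0.92, the chloride channel Clcn7 by 1.36 and 1.03, Src by 2.43 and 2.32, and creatine kinase Ckb by 1.43 and 1.46, in control and B2m-null tumours in turn. Over all eligible barcodes the rises were 0.88 and 0.67 for Tcirg1, 0.97 and 0.99 for Clcn7 and 2.12 and 2.52 for Src, all called, while Ckb was at 0.02 and 0.08 and not called. That set includes the Ctsk-high barcodes. In other eligible barcodes alone, with no test, Src was at 2.37 and 2.60 CPM in the control isotype pools and 10.1 CPM in the control anti-CD40 pool, and at 2.77 and 2.11 CPM against 10.7 and 10.9 CPM in the B2m-null pools. Clcn7 was at 43.7 and 47.1 against 77.1 CPM, and at 39.0 and 43.2 against 73.3 and 60.6 CPM there. Tcirg1 was at 106 and 123 against 183 CPM, and at 119 and 117 against 166 and 145 CPM. The 3 genes were thus higher with anti-CD40 in every pool of both sets.

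Of 16 osteoclast genes tested, 6 rose in control tumours (median 2.12) and 10 in B2m-null tumours (median 2.33), none fell, and the median over all genes was -0.01 in each. The 4 that were called in B2m-null tumours only were Nfatc1 (3.17, adjusted p = 0.0272; 2.92 and adjusted p = 0.0655 in control tumours), Ocstamp, Dcstamp and Jdp2, and no interaction was called for them. Group means of Atp6v0d2 were 426 CPM with either antibody in control tumours, and 403 CPM with isotype antibody and 477 CPM with anti-CD40 in B2m-null tumours. It was not called in either tumour (0.12, adjusted p = 0.843, and 0.36, adjusted p = 0.272). The summed list was at 816 to 1170 CPM in the 8 isotype mice and 1806 to 7125 CPM in the 6 anti-CD40 mice, without overlap, and at 565 to 789 and 716 to 803 CPM in other eligible barcodes. It includes Mmp9 and Acp5, which the rank rule chose for mice that did not overlap. With anti-CD40 their means in Ctsk-high barcodes were 2062 and 981 CPM in control and 1479 and 1275 CPM in B2m-null tumours. The sum is thus not a result apart from these 2 genes.

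**Figure D5:**
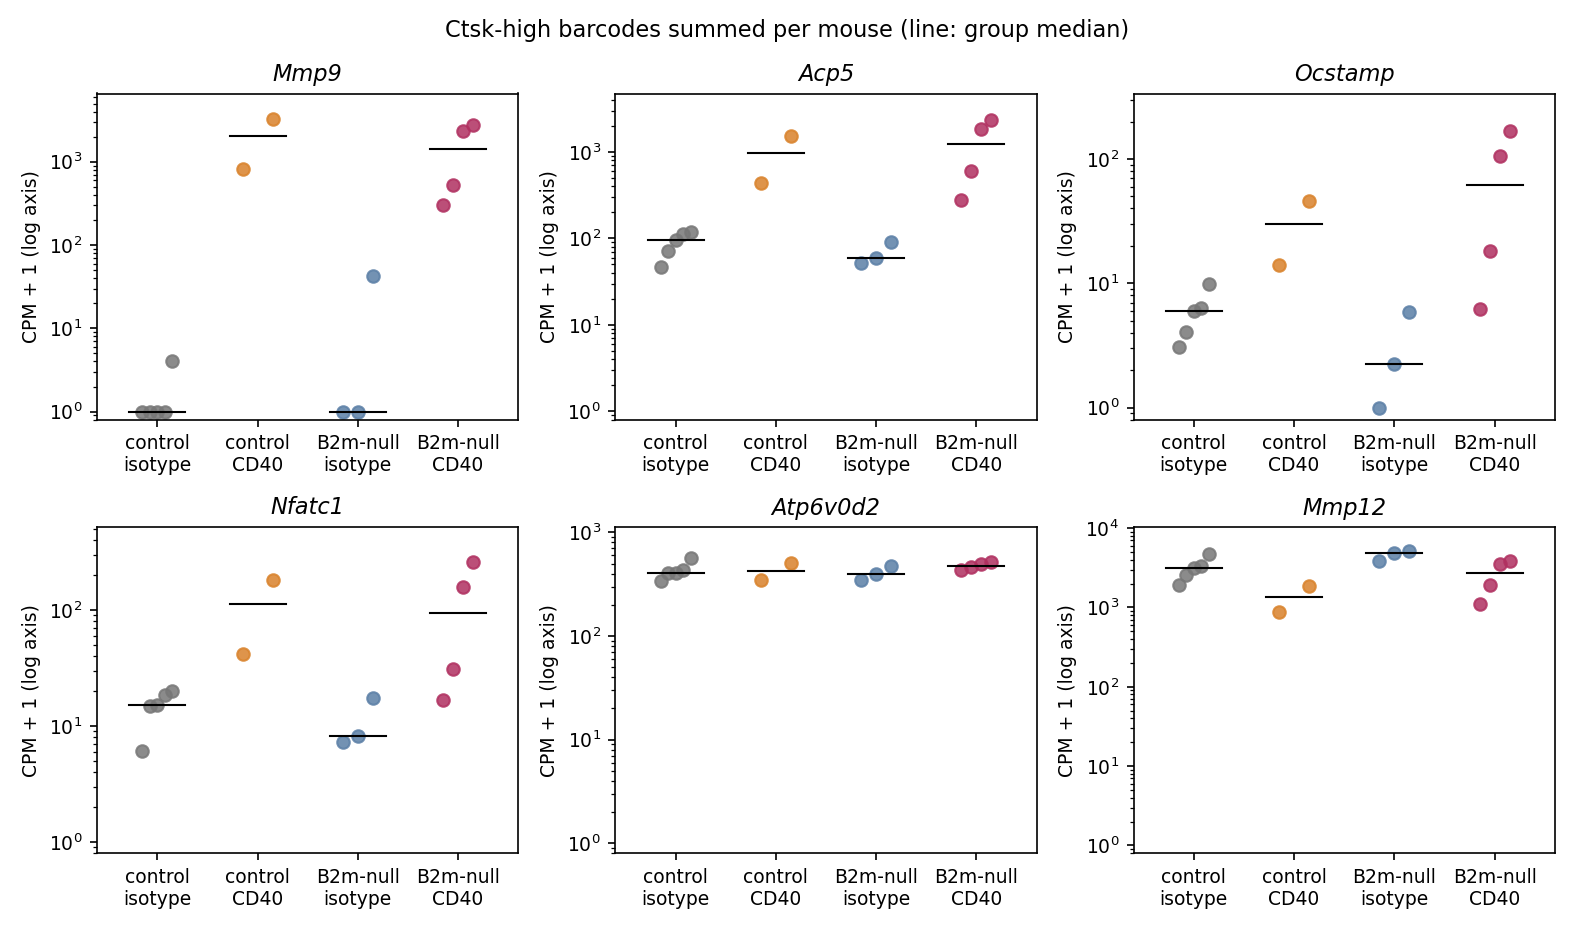
CPM plus 1 (log axes) in Ctsk-high barcodes summed per mouse, with 1 point per mouse and a line at the group median, for Mmp9, Acp5, Ocstamp, Nfatc1, Atp6v0d2 and Mmp12. Mmp9 lies at 41.1 CPM or less in isotype mice and at 300.5 CPM or more in anti-CD40 mice, and Atp6v0d2 has group means of 403 to 477 CPM.

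The barcodes of high Ctsk were mostly from anti-CD40 mice, so the contrasts were also run without them. With only the barcodes of 3 to 19 Ctsk UMIs, a setting chosen after the values were seen, Mmp9 still rose in B2m-null tumours (6.05, adjusted p = 0.00286), as did Acp5 (2.35, adjusted p = 4.76e-05) and Nfatc1 (1.76, adjusted p = 0.0490). In control tumours Mmp9 was at 4.40 (adjusted p = 0.0717) and Acp5 at 0.46 (adjusted p = 0.503) there. Of the genes named by rank that could be tested in this range, 10 of 10 kept their call in B2m-null tumours. In control tumours 7 of 10 kept it, 2 lost it and 1 turned direction.

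By rank, the other rises in control tumours were Mt3 (8.27), the sodium-proton exchanger Slc9b2 (6.00), the acute phase protein Orm1 (4.61) and the lysosomal sulfatase Arsb (2.98). In B2m-null tumours they were Slc9b2 (4.74), the serine protease Htra1 (4.56), Ly6i (4.54) and Mt3 (4.36). At 4000 UMIs 9 of the 12 genes named by rank in B2m-null tumours could be tested and 2 kept their call, while Slc9b2, Mt3, Acp5, Slc40a1, Ednrb, Cbr2 and Mrc1 lost it, and without the second B2m-null isotype pool 1 of 12 kept it. The 12 genes named by rank in control tumours kept their call in 2 cases with lanes as units, 4 without the control anti-CD40 mouse with hashtag 1, 7 without the other mouse of its pool, 5 without the first and 10 without the second control isotype pool, and in 7 of 10 at 4000 UMIs. Without the mouse with hashtag 1, Slc9b2, Acp5, Arsb, Cxcl3, Slfn4, Plac8, Ifit3 and Ms4a4c lost it. The control isotype mice held 3 UMIs of Mt3 and 2 of Slc9b2 in all, so the ratios of pooled counts there were 261 (counting interval 88.8 to 1273) and 60.4 (16.0 to 510). Arsb lost its rise in control tumours with the 3 to 19 range (-0.47, adjusted p = 0.732). Slc9b2 and Arsb lost the call there at no more than 5% mitochondrial UMIs. In B2m-null tumours 4 of the 12 genes kept it with lanes as units. Without the isotype mouse with hashtag 2 of the second pool, 6 kept it. At 4000 UMIs no mouse of the first B2m-null isotype pool reached 10 Ctsk-high barcodes, so that group rested on its second pool.

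The falls named by rank were chosen in each tumour separately, and their difference between tumours was not tested as a set. In control tumours they were the chemokine Cxcl3 (-6.30), Slfn4 (-3.77), Plac8 (-3.57), the monocyte chemokine receptor Ccr2 (-2.94; 131 against 13.7 CPM), the interferon-induced Ifit3 (-2.93) and Ms4a4c (-2.91). Only 2 UMIs of Cxcl3 were counted with anti-CD40, a ratio of 0.00827 (counting interval 0.000999 to 0.0300). In B2m-null tumours they were the chemokine Ccl24 (-3.37), the iron exporter Slc40a1 (-2.57), the endothelin receptor Ednrb (-2.37), Gm42418 (-2.30), the carbonyl reductase Cbr2 (-2.09) and Mrc1 (-1.97; 1160 against 268 CPM). Gm42418 overlaps ribosomal RNA and serves as a sign of library composition. It was at 5133 and 1428 CPM in control, and 6533 and 1225 CPM in B2m-null tumours, with isotype antibody and anti-CD40 in turn, and its part in the other changes was not tested. Plac8 (-1.72) and Ifit3 (-1.52) also fell with anti-CD40 over all eligible barcodes of control tumours, and both were called.

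By list, resident-like macrophage genes fell for 9 of 14 in B2m-null tumours (median -1.58) and 1 of 14 in control tumours (median -1.73). Pf4, a chemokine of resident macrophages, was the gene of this list called in both tumours. It was at 1612, 1704, 2104, 2398 and 2203 CPM in control isotype mice and 355 and 426 CPM in control anti-CD40 mice, without overlap (-2.24, SE 0.41, edgeR adjusted p = 0.00323). It was at 2571, 2933 and 3143 CPM in B2m-null isotype mice and 934, 394, 1728 and 1372 CPM in B2m-null anti-CD40 mice, again without overlap (-1.24, SE 0.32, adjusted p = 0.0301). Over all eligible barcodes of B2m-null tumours Pf4 (-0.93), Cd163 (-2.19), Lyve1 (-1.76), Igf1 (-1.32) and Stab1 (-0.86) also fell and were called. In control tumours none of them was called there (Pf4 -0.70, edgeR adjusted p = 0.126). Medians of the summed list were 4823 and 1701 CPM in Ctsk-high barcodes, with isotype antibody and anti-CD40 in turn. In other eligible barcodes they were 4119 and 3124 CPM. Monocyte genes fell for 4 of 10 in control tumours (median -2.09), whereas 1 rose and 1 fell in B2m-null tumours (median 0.44). Complement and core macrophage genes fell for 2 of 12 in control tumours, Cd14 (-1.36) and Fcgr1 (-1.48), and none was called in B2m-null tumours.

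Inflammatory mediators were called in both directions in control tumours, 3 higher and 3 lower of 13, and 3 higher in B2m-null tumours. Saa3, an acute phase protein, rose by 4.36 and 2.81 and Nos2, the inducible nitric oxide synthase, by 2.00 and 3.01. Arg1 fell in control tumours (-2.58, adjusted p = 0.00682; 857 against 136 CPM) and was at -0.59 (adjusted p = 0.402) in B2m-null tumours. Acod1, which makes itaconate, rose in B2m-null tumours (3.06, adjusted p = 0.000803). Over all eligible barcodes the changes were about as large, with 4.16 and 2.76 for Saa3, 2.26 and 3.94 for Nos2, and 3.21 for Acod1 in B2m-null tumours, all called. Of antigen presentation genes, Cd74 rose by 0.97 and 0.92, and 1 and 2 of 10 were called. Of lipid-associated genes none was called in control tumours and 2 of 15 were lower in B2m-null tumours, among them the scavenger receptor Cd36 (-1.42). Lysosome genes gave no call in control tumours, and 1 was higher and 1 lower in B2m-null tumours. The cathepsin list gave 1 rise in each, the protease inhibitor Cst7 (4.72 and 3.09). Matrix enzymes gave 1 call each, Mmp13 lower in control tumours (-2.36) and Mmp14 higher in B2m-null tumours (1.59). The median shifts of all lists stand beside -0.01 over all genes.

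How did the tumour genotype matter? Between B2m-null and control tumours with isotype antibody 1 of 8406 genes (0.0119%) was called in Ctsk-high barcodes, the transporter Slco3a1, lower in B2m-null tumours (-2.89, edgeR adjusted p = 0.0496; 3.69 against 23.9 CPM). At an unadjusted p under 0.05 the count was 495 (5.89%), and DESeq2 called 40. With anti-CD40, 3 genes (0.0357%) were called, all lower in B2m-null tumours, Zfas1 (-2.10), mt-Nd4l (-1.55) and Romo1 (-1.10), each with an edgeR adjusted p of 0.0170. None of the 3 kept the call with lanes as units, at 4000 UMIs, without either control isotype pool, without the second control anti-CD40 lane, or without 1 mouse of each anti-CD40 group. No gene of the osteoclast list was called in either contrast, with medians of 0.01 and 0.07. These counts do not show that the tumours were alike, since the groups held 2 to 5 mice.

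The antibody effect itself differed between tumours for 20 of 8406 genes (0.238%). They included Isg15, Plac8 and Ifit3, which had lower levels with anti-CD40 in control tumours and higher ones in B2m-null tumours. In B2m-null tumours the direction of Plac8 and Ifit3 turned at 4000 UMIs (-1.02 and -0.30), for Plac8 without the first anti-CD40 pool (-0.16) and for Ifit3 without the second (-0.37). Over all eligible barcodes the interaction was called for the same 3 genes, with 2.39 for Isg15 (adjusted p = 0.00129), 2.17 for Plac8 (adjusted p = 0.0262) and 1.96 for Ifit3 (adjusted p = 0.00127). The interactions of Mmp9 (-4.76, adjusted p = 0.406) and Acp5 (0.54, adjusted p = 0.921) were not called. Among all eligible barcodes Mmp9 rose with anti-CD40 by 5.85 (SE 0.75, edgeR adjusted p = 6.69e-05) in control and 4.69 (SE 0.67, adjusted p = 0.000105) in B2m-null tumours. Acp5 was at 1.17 (adjusted p = 0.0543) and rose by 2.04 (adjusted p = 0.000463).

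The contrasts inside Ctsk-high barcodes rest on few mice. Without the control anti-CD40 mouse with hashtag 1, 90 genes were called in control tumours, and Acp5 was at 2.51 (adjusted p = 0.0579). Without the other mouse of that pool 118 were called, and without the control isotype pools 72 and 157. In B2m-null tumours 92 were called without the mouse that held all 100 isotype UMIs of Mmp9, 198 and 233 without the other isotype mice, 6 without its pool, and 288 without the first anti-CD40 mouse, while 977 were called without the second anti-CD40 pool. Leaving out B2m-null anti-CD40 libraries, which share in the estimate of spread, raised the count in control tumours to 554 (first pool), 433 (second pool) and 465 (the mouse with hashtag 2 of the first pool). With lanes as units 6 and 75 genes were called in control and B2m-null tumours.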

How the data were processed

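Single-cell 3′ RNA libraries (10x Genomics, v3 chemistry, with hashtag antibodies) of 8 lanes were measured, and the deposited matrices of each lane hold UMI counts per gene and barcode. Per the submitters' processing notes, Cell Ranger 3.0.0 and the mm10 genome were used, and bcl2fastq 2.20.0.422 is named. Filters the authors may have set are not given in the sources read.

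From these counts, barcodes with 200 or more genes and a mitochondrial share up to 10% were kept. No doublet caller was run. Barcodes were assigned to mice from the deposited hashtag counts, with at least 20 hashtag counts and a posterior of 0.9. Barcodes with more than 1 hashtag stayed in lane values and out of mouse values. The labels list 3 hashtags per pool, and 2 lane files hold 3 hashtag lines and the other 6 hold 2. Cells of unlisted tags thus could not be assigned to their own mouse. The assignment had no class for cells without a listed tag. Such cells with 20 or more hashtag counts may therefore be counted under a listed mouse, which was not tested. The 2 control anti-CD40 lanes are technical lanes of 1 pool and were summed per mouse. A mouse entered the shares with 50 eligible barcodes and the tests inside or against Ctsk-high barcodes with 10 Ctsk-high barcodes. The 2 mice left out of these tests had 3 and 9 Ctsk-high barcodes. Both were of the first B2m-null isotype lane, where 33.9% of barcodes were assigned.

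Counts summed per mouse were tested with edgeR 4.0.16 (quasi-likelihood test, TMM scaling, filterByExpr, Benjamini-Hochberg adjustment over all genes tested, called at an adjusted p under 0.05), after a check on simulated counts. All groups entered 1 fit, and all adjusted p-values are edgeR's unless named otherwise. The comparison with other eligible barcodes had the mouse as a block. Shares were compared with exact permutation tests over mice in SciPy 1.17.1. Intervals of shares are 95% Wilson intervals, and the limit for a count of 0 is 3 counts of the total. Counting intervals of ratios are 95% exact binomial intervals on pooled UMIs. They do not cover the spread between barcodes or mice. DESeq2 1.42.0 was an alternative. Mice are animals that share pools and lanes, so p-values may understate the spread between pools.

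Genes named by rank were the 12 largest rises and 10 largest falls with the same direction in every mouse, and 6 rises and 6 falls in each group contrast with mice that did not overlap. Each had an adjusted p under 0.05 and at least 50 CPM in the higher set, and the genes of the rule were left out. Other named genes come from the lists, or were picked for the text after their values were seen. The members and lists were chosen with earlier results of these data known. Alternatives were other scaling, no low-count filter, lanes as units, other limits on Ctsk and mitochondrial UMIs, thinning to 4000 UMIs and leaving out each lane or mouse.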

Additional observations from a re-analysis of the deposited data

Results flagged for a closer look

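Among the 12 groups of values looked at for a sample far from the others, 2 had one, and chance gives about 1 in 20. The share of Ctsk-high barcodes in 1 B2m-null anti-CD40 mouse was 1.69%, while the other 3 mice of the group had 4.96% to 5.41%. That mouse had a median of 3701 UMIs per eligible barcode, against 4709 to 6773 in the others. At 4000 UMIs it was at 2.69% and the others at 3.31% to 5.71%. Acp5 over all eligible barcodes was 322 CPM in 1 B2m-null anti-CD40 mouse, while the other 3 had 103 to 140 CPM.

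Inside Ctsk-high barcodes the effect of anti-CD40 differed between B2m-null and control tumours for 3 genes that the report follows (edgeR interaction term). Isg15, an interferon-induced ubiquitin-like protein, had a difference in log2 change of 2.82 (adjusted p = 0.0231). Its group means were 365 and 127 CPM in control tumours and 121 and 318 CPM in B2m-null tumours, with isotype antibody and anti-CD40 in turn. Plac8, high in monocytes, had a difference of 4.44 (adjusted p = 0.0339), with means of 351 and 24.3 CPM in control tumours and 104 and 209 CPM in B2m-null tumours. Ifit3, also interferon-induced, had a difference of 3.89 (adjusted p = 0.0455), with means of 80.2 and 11.2 CPM and 23.4 and 47.0 CPM. In B2m-null tumours the direction turned at 4000 UMIs for Plac8 (-1.02) and Ifit3 (-0.30). Over all eligible barcodes the interaction was called for the same 3 genes.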

How the results depend on the processing

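All results rest on 2 to 5 mice per group, with control anti-CD40 from 1 pool, and on a cut at 3 UMIs that a deep barcode passes more easily. Where leaving out a mouse or pool left 1 mouse in a group, that mouse was assumed to vary like the other groups. The share contrasts that turned sign were B2m-null minus control with isotype antibody at 0.0811 points with all barcodes within the gene and mitochondrial limits as denominator, and anti-CD40 minus isotype in control tumours at 0.207 points for 5 or more Ctsk UMIs and 0.833 points at 4000 UMIs. Leaving out a lane or mouse gave -0.584 to 0.233 points (control) and 1.33 to 3.06 points (B2m-null) for anti-CD40, and -0.591 to 0.684 points (isotype) and 1.43 to 3.16 points (anti-CD40) for genotype.

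For Ctsk over eligible barcodes in control tumours, lanes as units gave 1.28 and 5% mitochondrial UMIs gave 1.04. Leaving out a lane or mouse gave 0.75 to 2.80 (control) and 2.41 to 3.16 (B2m-null) for anti-CD40, and -0.37 to -0.01 (isotype) and -0.11 to 1.94 (anti-CD40) for genotype. Against other eligible barcodes, thinning to 4000 UMIs gave 433 higher and 903 lower genes, and leaving out a lane or mouse gave 1220 to 1686 higher and 1694 to 2111 lower.

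Calls between groups inside Ctsk-high barcodes moved most. For anti-CD40 in control tumours, anti-CD40 in B2m-null tumours, genotype with isotype antibody and genotype with anti-CD40 in turn, the counts were 526, 810, 154 and 202 with no low-count filter, 6, 75, 0 and 0 with lanes as units, and 134, 6, 0 and 0 at 4000 UMIs. Leaving out a lane or mouse gave 72 to 554, 6 to 977, 0 to 36 and 0 to 143. For the 2 genotype contrasts DESeq2 called 40 and 61, the 3 to 19 range of Ctsk UMIs gave 48 and 75, and 5% mitochondrial UMIs gave 4 and 6, with 242 for anti-CD40 in B2m-null tumours. DESeq2 size factors in edgeR gave 0 for genotype with isotype antibody. The cause of these shifts was not tested.

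Named genes that turned sign were, against other eligible barcodes, Nfatc1 (-0.15 in the 3 to 19 range, -0.71 in isotype mice). In control tumours they were Arsb (-0.47), Ckb (-0.10) and Atp6v0d2 (-0.051) in the 3 to 19 range, and Atp6v0d2 also at 5% mitochondrial UMIs (-0.028) and without an anti-CD40 lane or mouse (range over all left-out libraries -0.55 to 0.37). In B2m-null tumours they were Ifit3 (-0.30) and Plac8 (-1.02) at 4000 UMIs, Arg1 in the 3 to 19 range (0.000566), and, without a lane, Arg1 (range -1.21 to 0.24), Ifit3 (-0.37 to 3.81) and Plac8 (-0.16 at its lowest). Of all other named-gene values under the alternatives, 4074 kept their direction and stayed called or stayed uncalled, 362 lost the call and 59 gained one.

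The replicate numbers of the lanes name no shared batch, and no more than 2 numbers are shared, so they pair nothing by design. With the replicate block, Ctsk over eligible barcodes rose by 2.88 in B2m-null tumours and was at -0.19 for genotype with isotype antibody, the share contrasts had exact permutation p = 0.200 (2.18 points) and -0.0810 points, and 421 and 1 genes were called inside Ctsk-high barcodes. The block could not be fitted for contrasts with control anti-CD40, which is 1 pool. Without the mouse block, 1347 genes were higher and 1351 lower against other eligible barcodes.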
